A study of Mus musculus with 2 samples.

Results

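The miR-10 and miR-196 families are microRNAs encoded inside the Hox clusters, and they were followed here in exosomes shed by a mouse colorectal cancer line. The 6 members are the mature products mmu-miR-10a-5p, mmu-miR-10a-3p, mmu-miR-10b-5p, mmu-miR-10b-3p, mmu-miR-196a-5p and mmu-miR-196b-5p, chosen by family and genomic position out of 1915 mature miRNAs listed in each library. At least 1 read was found for 4 of the 6 in parental exosomes and for 2 of the 6 in exosomes of the cancer spheres. Of all 1915 miRNAs, 328 and 124 had a read, in libraries of 32162 and 3964 miRNA reads. The members seen in parental exosomes alone, miR-10b-3p and miR-196b-5p, had 1 read each. CT26 is an established colon carcinoma line of the Balb/C strain. The exosomal small RNA of parental CT26 cells was compared with that of CT26-derived spheres, the sphere-derived cancer stem cells (SDCSCs), with 1 library per condition. The parental cells were kept in complete DMEM made with exosome-depleted serum during collection. The spheres were grown for 2 weeks without serum in DMEM/F12 with N2 supplements, 10 ng/ml EGF and 10 ng/ml bFGF. By the paper's methods, sphere medium for exosomes was collected from the end of these 2 weeks through the following week. The medium, the time of collection and the cell state therefore cannot be told apart, and the differences have no replicate check. The series was designed to find miRNAs linked to the malignancy of colon cancer stem cells by this comparison.

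Hox genes encode the transcription factors that set position along the body axis, and they lie in 4 clusters in the order in which they are used along that axis. The miR-10 genes sit next to the group 4 Hox genes and the miR-196 genes next to the group 9 and 10 genes, and both families are known to repress Hox mRNAs. A miRNA precursor folds into a hairpin from which a 5p and a 3p strand can be cut. One of them is usually retained as the guide, whose seed, bases 2 to 8, pairs with target mRNAs. In tumours miR-10b has been studied mainly for its link with invasion and metastasis. Exosomes carry such small RNAs out of the cell.

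The mature sequences are shown to make plain how little separates the paralogs, with the seed in capitals, 5′ to 3′, as given by RefSeq for GRCm38.p6.
miR-10a-5p: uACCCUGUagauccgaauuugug
miR-10b-5p: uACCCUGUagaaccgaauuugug
miR-10a-3p: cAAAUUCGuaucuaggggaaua
miR-10b-3p: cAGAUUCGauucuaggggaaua
miR-196a-5p: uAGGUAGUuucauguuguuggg
miR-196b-5p: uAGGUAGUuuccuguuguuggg

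Counted from 1 at the 5′ end, miR-10a-5p and miR-10b-5p were identical at 22 of 23 bases and differed by U12A, with the miR-10a base first. The difference lies outside the seed, so both carry the seed ACCCUGU, which no other of the 1679 mature mouse sequences in the table holds. Their 3p strands differed at 3 of 22 bases, and 1 of these, A3G, falls in the seed. The miR-196 paralogs differed by A12C with the miR-196a base first and share the seed AGGUAGU. The study's methods name ncPRO-seq, which can divide a read among features, for the exosomal RNA, but whether these miRNA values came from it is not stated. All values above 0 were whole multiples of the smallest one, which was taken as 1 read. This cannot show whether reads were divided, since the smallest value could itself be part of a read. A read with a mismatch at base 12 could be given to the other paralog or counted under both names. The split between miR-10a and miR-10b is uncertain to that extent.

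The hairpins of the miR-10 genes are shown with their 5p and 3p strands in capitals, since the strand choice is compared below.
Mir10a: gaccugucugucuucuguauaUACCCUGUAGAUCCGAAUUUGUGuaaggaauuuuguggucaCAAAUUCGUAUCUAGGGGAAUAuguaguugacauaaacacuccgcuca
Mir10b: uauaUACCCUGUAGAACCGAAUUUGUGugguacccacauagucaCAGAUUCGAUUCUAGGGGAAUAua

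In GRCm38, Mir10a lies on the plus strand at chr11:96317165-96317274 in the Hoxb cluster, between genes and 993 bases from Hoxb4. Mir10b lies on the plus strand at chr2:74726070-74726137 in the Hoxd cluster, within introns of all 3 annotated transcripts of Hoxd3 and Hoxd4 that span it. The mature miR-196a-5p is made from 2 genes of identical mature sequence. Mir196a-1 is at chr11:96265164-96265265, plus strand, 6192 bases from Hoxb9 and 51900 bases from Mir10a in the same cluster. Mir196a-2 is at chr15:102973350-102973434, plus strand, 1457 bases from Hoxc10 and in an intron of a Hoxc5 transcript. Mir196b is at chr6:52230081-52230165, minus strand, 1032 bases from Hoxa10. It overlaps 3 noncoding Hoxa9 transcripts, in an exon of 2 and an intron of 1. The clusters that gave reads in these exosomes were thus mainly Hoxb and Hoxd, at the position next to the group 4 genes.

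**Figure D1:**
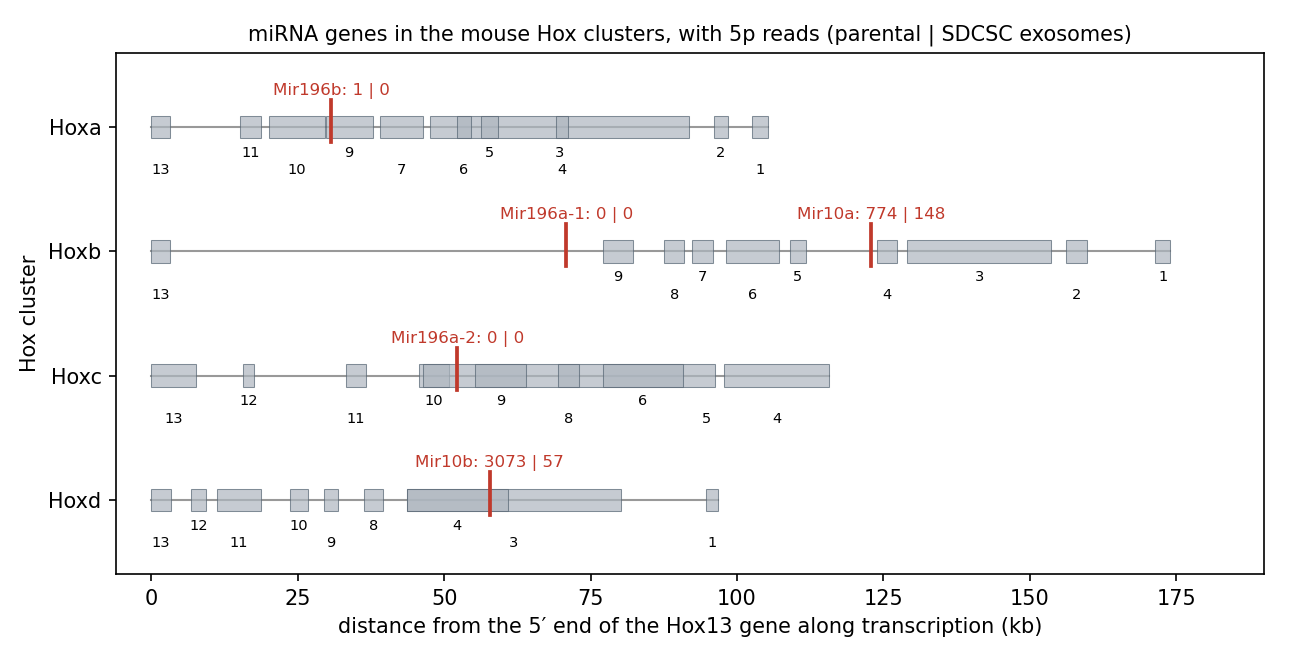
Map of the 4 mouse Hox clusters drawn to scale, with distance in kb from the 5′ end of each Hox13 gene, grey boxes for protein-coding Hox genes (numbered by group) and red ticks for miRNA genes. Beside each miRNA gene stand the reads of its 5p product in parental and SDCSC exosomes, with 774 and 148 for Mir10a, 3073 and 57 for Mir10b, and at most 1 for the miR-196 genes, whose genes Mir196a-1 and Mir196a-2 share 1 mature sequence.

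The deposited values were RPM, that is reads scaled to the same total in every library, and 1 read was worth 27.31 RPM in the parental and 217.77 RPM in the SDCSC library. Taking the highest entry of each miRNA, the libraries held 32162 and 3964 miRNA reads, and shares refer to these totals. The limit of detection was set at 3 reads, which is 0.00933% of the parental and 0.0757% of the SDCSC reads. Intervals cover counting error only, because 1 library per condition gives no spread between replicates. They may be too narrow even for that, and p-values too small, because amplified reads are not independent molecules. The labelled origin was checked on markers. Of 9 miRNAs typical of colon epithelium, 3 had a read in the parental library and 2 in the SDCSC library. They took 0.171% and 0.0505% of reads, and none was seen in both libraries. Parental exosomes had miR-192-5p (48 reads), miR-194-5p (5) and miR-215-5p (2), each with 0 reads in SDCSC exosomes. SDCSC exosomes had 1 read each of miR-200b-3p and miR-429-3p, which had 0 in parental exosomes. The remaining miR-200a-3p, miR-200c-3p, miR-141-3p and miR-375-3p had 0 reads in both. No verdict on the labelled origin is drawn from so few reads. Of 9 blood-cell miRNAs, 9 had a read in parental and 1 in SDCSC exosomes, for 6.35% (95% Wilson interval 6.09 to 6.62%) and 0.0252% (0.00445 to 0.143%) of reads. Of the 2042 parental reads of this list, miR-486a-5p had 856 and miR-486b-5p had 853. Counts this close may be the same reads listed under both names, so the parental share and its interval may be too high. The red-cell miRNA miR-451a had 88 and 0 reads. This list moved with the libraries in the same direction as miR-10b-5p, and its part in the results was not tested. With these 9 left out of the totals, the log2 ratios described next were 0.54 for miR-10a-5p and -2.83 for miR-10b-5p.

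Exosomes of the spheres carried much less miR-10b-5p and a somewhat larger share of miR-10a-5p than parental exosomes, while the other 4 members were at or near 0 in both libraries. For miR-10b-5p the parental library had 83927.35 RPM or 3073 reads, which is 9.55% of its miRNA reads (95% Wilson interval 9.24 to 9.88%). The SDCSC library had 12412.89 RPM or 57 reads, 1.44% (1.11 to 1.86%). The share of miR-10b-5p was thus 6.64-fold lower in SDCSC exosomes, which on the log2 scale is -2.73 (exact 95% interval -3.14 to -2.35). Fisher's exact test (two-sided, on the recovered reads) gave a Benjamini-Hochberg adjusted p over 336 miRNAs of 3.36e-91. For miR-10a-5p the parental library had 21138.88 RPM or 774 reads, 2.41% (2.24 to 2.58%), and the SDCSC library had 32229.97 RPM or 148 reads, 3.73% (3.19 to 4.37%). The share of miR-10a-5p was 1.55-fold higher in SDCSC exosomes, or 0.63 on the log2 scale (exact 95% interval 0.37 to 0.89), and the adjusted p of the same exact test was 2.96e-05. These tests compare the reads of the libraries and not the conditions. A share cannot tell fewer vesicles that carry a miRNA from less of it per vesicle.

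**Figure D2:**
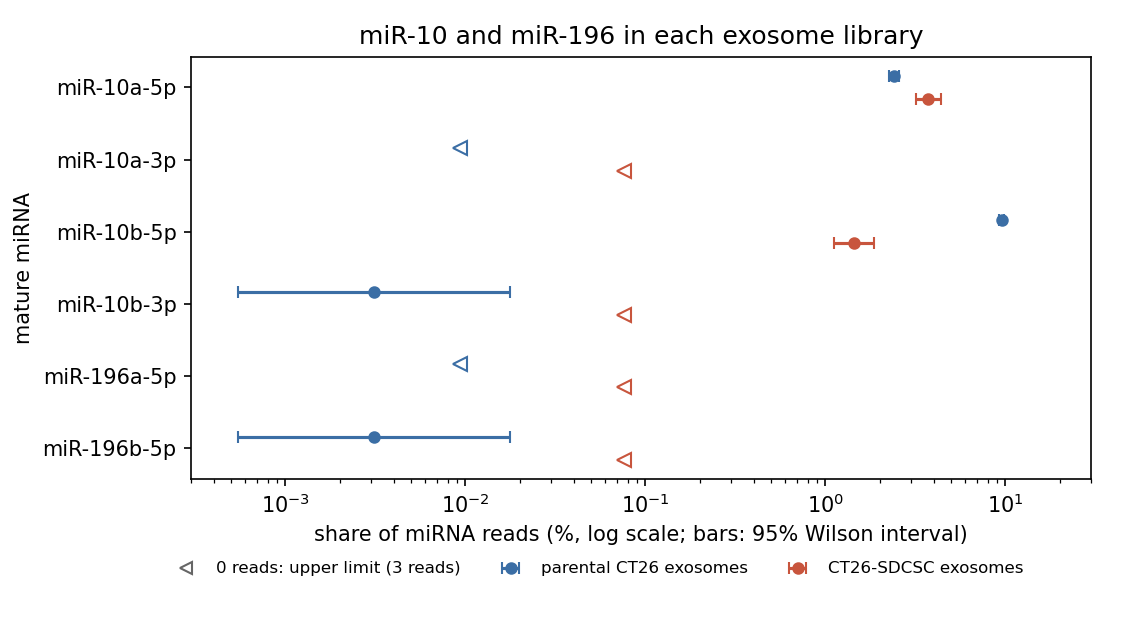
Share of miRNA reads (percent, log axis) of the 6 members in parental (blue) and SDCSC (red) exosomes, with 95% Wilson intervals as bars and open triangles at the limit of 3 reads where none was found. The parental and SDCSC intervals were 9.24 to 9.88% and 1.11 to 1.86% for miR-10b-5p, and 2.24 to 2.58% and 3.19 to 4.37% for miR-10a-5p. The other 4 members lie at or below the limit of the SDCSC library.

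Of the members with a read in each library, 1 was called higher and 1 lower by at least 1.5-fold with the adjusted p of the exact test below 0.05. Over all 116 miRNAs with a read in each library, 13.8% were called higher and 19.8% lower by this rule, and 37.9% and 35.3% by the fold alone. Many of the 116 had few SDCSC reads, with which an adjusted p below 0.05 is harder to reach. The shares by the full rule may therefore be too low for miRNAs as abundant as the miR-10 paralogs. The call of miR-10a-5p lay close to the fold threshold. Scaled by the median of ratios or by TMM factors it was 1.49-fold higher in both cases, which is under 1.5-fold, though the adjusted p stayed under 0.05 (0.000223 and 0.000227, exact binomial test). It was also under 1.5-fold with the 6 members (1.44) or the 9 blood-cell markers (1.45) left out of the totals. Without library scaling its log2 ratio was -2.39, and of the 116 miRNAs 8 were higher and 100 lower, against 44 and 41 with scaling. The lower share of miR-10b-5p held under every scaling tried.

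**Figure D3:**
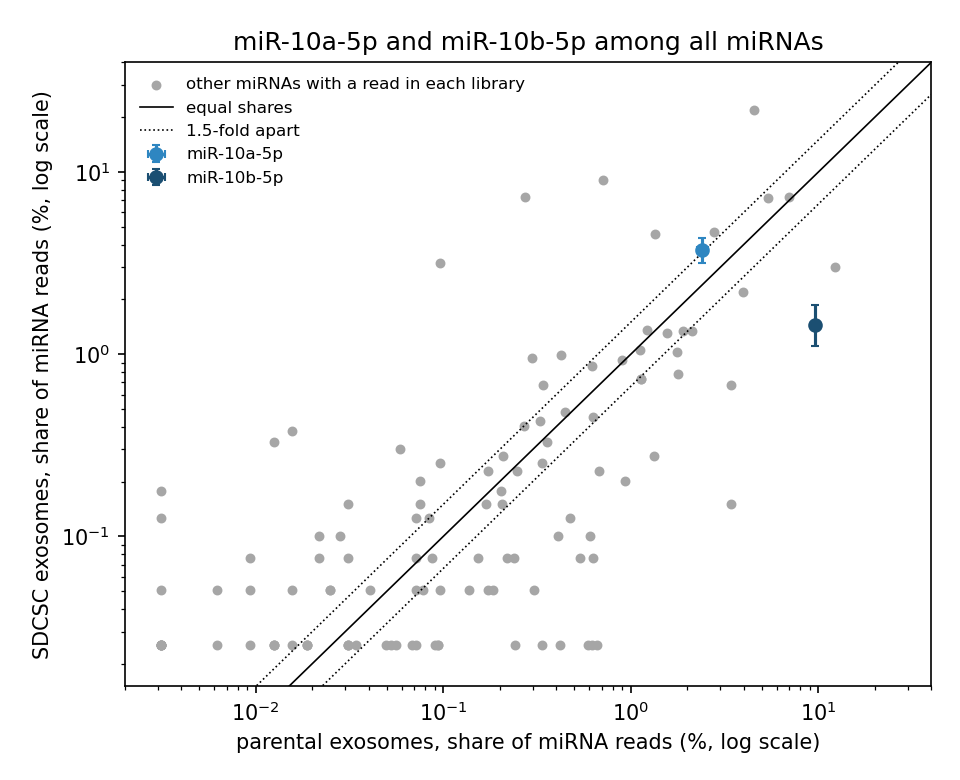
Share of miRNA reads in parental (horizontal) and SDCSC exosomes (vertical), in percent on log axes, for the 116 miRNAs with a read in each library, with the line of equal shares, dotted lines at 1.5-fold and 95% Wilson intervals for the miR-10 paralogs. miR-10b-5p (9.55% against 1.44%) lies far below the line and miR-10a-5p (2.41% against 3.73%) just above the upper dotted line.

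The members' order changed as well. In parental exosomes miR-10b-5p ranked 2 among all miRNAs, behind miR-99b-5p with 3927 reads and ahead of miR-22-3p with 2253, and the Wilson interval of no other miRNA overlapped its own. In SDCSC exosomes it ranked 12, and the intervals of 11 other miRNAs overlapped its own, so its place there is known only roughly. miR-10a-5p ranked 12 in parental exosomes, where it overlapped with 3 others (miR-486a-5p, miR-486b-5p and miR-26a-5p). In SDCSC exosomes it ranked 8 and overlapped with 4 others. With 182 reads of let-7a-5p above and 125 of miR-92b-3p below, its place among those 4 was not resolved.

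The paralog that dominated the miR-10 family differed between the libraries. In parental exosomes there were 3.97 reads of miR-10b-5p for each read of miR-10a-5p, and miR-10b-5p made up 79.9% of the 3847 reads of both (95% Wilson interval 78.6 to 81.1%). In SDCSC exosomes there were 2.60 reads of miR-10a-5p for each read of miR-10b-5p, which then made up 27.8% of 205 reads (22.1 to 34.3%). The odds of a miR-10 read being miR-10a-5p were 10.3 times as high in SDCSC exosomes (exact conditional 95% interval 7.46 to 14.4; adjusted p = 1.43e-53 over 4 tests of shares, two-sided Fisher's exact test). This is also the test of the difference between the paralogs' ratios. It uses no library total, so that no scaling can move it. Among 44 pairs of paralogs told apart by a letter, let-7 included, with at least 100 parental and 20 SDCSC reads, the miR-10 pair had the largest change of share, 52.1 percentage points. It ranked 3 by the change in odds. The more abundant paralog switched in 5 of the 44 pairs, so a switch was not particular to miR-10. The change of share was next largest for let-7a-5p and let-7f-5p, which also switched, with 435 and 566 reads in the parental library and 182 and 41 in the other. The remaining switches were miR-30d-5p with miR-30e-5p, let-7d-5p with let-7e-5p and let-7b-5p with let-7d-5p. Relatives told apart by number were not in this list, and some of them also switched. miR-99b-5p and miR-100-5p had 3927 and 229 reads in parental and 120 and 359 in SDCSC exosomes. miR-221-3p and miR-222-3p had 200 and 88 reads in parental and 34 and 288 in SDCSC exosomes. The largest change of share therefore holds among the 44 listed pairs only. The 44 pairs were listed after the miR-10 values had been seen, and many share a miRNA.

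Because both paralogs carry the same seed, their reads can be pooled as the reads that carry that seed. Parental exosomes held 11.96% of their miRNA reads in this pool (95% Wilson interval 11.6 to 12.3%), and SDCSC exosomes held 5.17% (4.52 to 5.91%). The log2 ratio of the pool was -1.21 (exact 95% interval -1.42 to -1.01). The larger share of miR-10a-5p did not make up for the smaller share of miR-10b-5p. The related miR-99/100 family, whose seed ACCCGUA differs from that of miR-10, took 12.95% (12.6 to 13.3%) and 12.2% (11.2 to 13.2%), a log2 ratio of -0.0912 (exact 95% interval -0.23 to 0.0452). Of the reads of both families, miR-10 made up 48.0% in parental and 29.8% in SDCSC exosomes, so the families differed in how they moved (odds ratio 2.17, exact 95% interval 1.83 to 2.58; Fisher's exact test, adjusted p = 3.18e-20 over the same 4 tests).

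**Figure D4:**
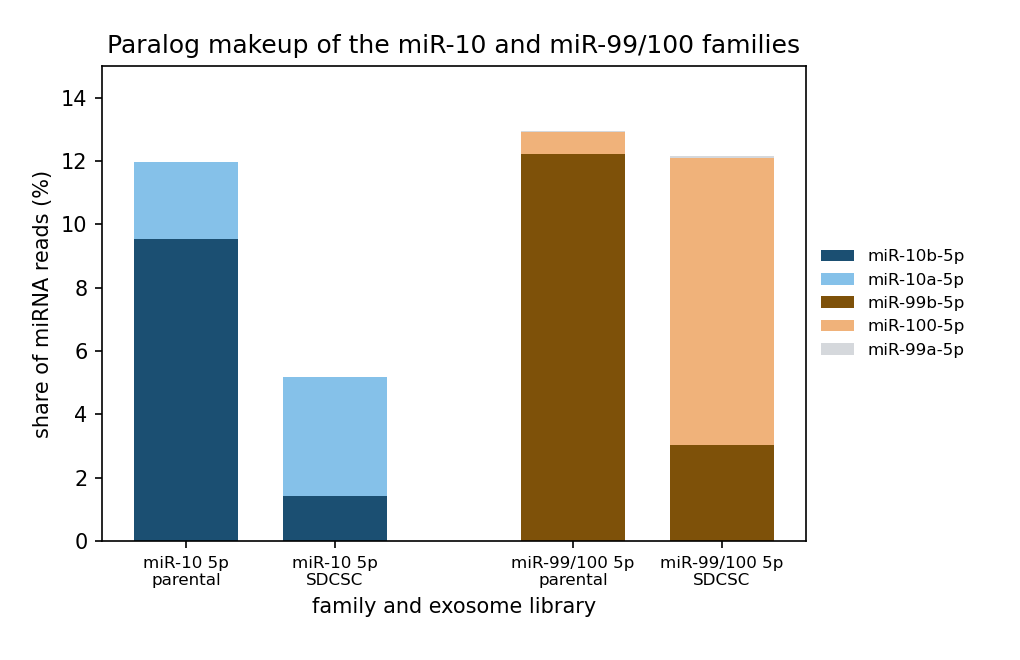
Share of miRNA reads (percent, bars from 0) taken by the 5p products of the miR-10 and miR-99/100 families in parental and SDCSC exosomes, stacked by paralog. The miR-10 bar falls from 11.96% to 5.17% and passes from mostly miR-10b-5p to mostly miR-10a-5p, and the miR-99/100 bar stands at 12.95% and 12.2% while miR-100-5p takes the place of miR-99b-5p.

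The base that separates the miR-10 paralogs recurs in their relatives. Over bases 10 to 16, miR-10a-5p reads GAUCCGA and miR-10b-5p reads GAACCGA, and no mature sequence held both. The first was found, on the mature strand only, in 3 of 1679 mature sequences, namely miR-10a-5p, miR-99a-5p and miR-100-5p. The second was found in 3, namely miR-10b-5p, miR-99b-5p and miR-700-3p, which had 0 reads in both libraries. The carriers of the first had log2 ratios of 0.63 (miR-10a-5p), 1.28 (miR-99a-5p, 10 and 3 reads, exact 95% interval -1.22 to 3.24) and 3.67 (miR-100-5p, 229 and 359 reads). The carriers of the second with reads had -2.73 (miR-10b-5p) and -2.01 (miR-99b-5p, 3927 and 120 reads). The stretch was looked for after these values had been seen, it concerns 5 related miRNAs, and it is a description only.

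The passenger strands of the miR-10 hairpins were at or near 0. In parental exosomes miR-10a-3p had 0 of 32162 reads, which allows a share of up to 0.00933%, and miR-10b-3p had 1 read. The 5p strand thus made up all 774 reads of Mir10a (lower 95% Wilson bound 99.5%) and 99.97% of 3074 reads of Mir10b (99.82 to 99.99%). In SDCSC exosomes neither 3p strand was seen in 3964 reads, which allows up to 0.0757%, and the 5p strand made up all 148 reads of Mir10a (lower bound 97.5%) and all 57 of Mir10b (lower bound 93.7%). For Mir10a the test could show no difference of strand use between libraries, because its 3p strand had 0 reads in both. The 3p strand of Mir10b had 1 read in all, and a difference was not detectable at this depth (p = 1, two-sided Fisher's exact test). Among 36 hairpins with both strands listed and at least 100 reads in parental exosomes, the rarer strand took a median of 1.45%. It had 0 reads in 11, Mir10a among them, and Mir10b came directly after these with 0.0325%.

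The miR-196 family, which sits next to the posterior Hox genes, was barely present. The mature miR-196a-5p was listed at 0 at both of its genes in both libraries, which allows up to 0.00933% of reads in parental and 0.0757% in SDCSC exosomes. miR-196b-5p had 27.31 RPM or 1 read in parental exosomes, 0.00311% (95% Wilson interval 0.000549 to 0.0176%), and 0 reads in SDCSC exosomes. Since the SDCSC limit lies above the parental share, a fall of miR-196b-5p, or a rise that stays under that limit, could not be seen. No ratio is given. Together the miR-196 5p products had 1 read against 3847 for the miR-10 5p products in parental exosomes. Mir196a-1 and Mir10a share the Hoxb cluster, and their 5p products had 0 and 774 reads there.

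Of the 5 other products of Hox-cluster miRNA genes, the 3p strands of Mir196a-1, Mir196a-2 and Mir196b and miR-615-5p had 0 reads in both libraries. miR-615-3p, from Mir615 in the Hoxc cluster, was counted 10 times in parental exosomes and once in SDCSC exosomes, for a log2 ratio of -0.30 and an exact 95% interval from -5.74 to 2.51. Neither direction is resolved by so few reads (adjusted p = 1, Fisher's exact test). Among the Hox-cluster products examined, only the miR-10 5p products had more than 10 reads in either library.

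Likeness to the members was measured as the distance between log2 ratios over these 2 libraries, for the 48 miRNAs with a read in each and at least 100 reads in all. The miRNAs nearest to miR-10a-5p were let-7e-5p (0.58), miR-143-3p (0.76) and miR-221-3p (0.46). Those nearest to miR-10b-5p were miR-125b-1-3p (-2.82), miR-423-5p (-2.59) and miR-186-5p (-2.58), each with at most 4 reads in SDCSC exosomes. Of the 48, 9 had a higher ratio than miR-10a-5p and 8 a lower ratio than miR-10b-5p, and their median log2 ratio was -0.57. The median over all 116 miRNAs with a read in each library was 0.0587. The minimum of 100 reads in all is more easily met through the parental library, which is deeper (32162 against 3964 miRNA reads). It therefore admits miRNAs low in SDCSC exosomes more readily than the reverse. The places among the 48 and the miRNAs named as nearest carry that lean.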

How the data were processed

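Small RNA libraries of exosomes from parental CT26 cells and from CT26-SDCSCs (1 each, 18 to 40 nucleotide fragments) were sequenced, clipped with Trimmomatic and freed of reads under 18 nucleotides by the authors. The RPM values, scaled to the miRNA reads of each library, are as deposited per the file headers. The submitters' processing notes name mm10, and the study's methods name ncPRO-seq with read sharing between features for the exosomal RNA. Whether the miRNA values came from it is not stated, and the miRBase release is not given in the sources used here.

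Reads were recovered by dividing by the smallest RPM above 0. With a tolerance of 0.01 reads, 100.0% of values above 0 were whole, for 36615 and 4592 reads over all 2061 entries. A miRNA at several entries was given its highest. Recovered reads were compared by Fisher's exact test, or by an exact binomial test under other scalings, since 1 library per condition leaves a log-scale test no spread. Among the 116 miRNAs with a read in each library, 16 were called higher and 23 lower, and with a read in either library 16 and 31. P-values of single miRNAs are adjusted over the 336 with a read.

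The miRNAs named are the members, other Hox-cluster products, the miR-99/100 relatives and the 3 nearest to each miR-10 paralog by log2 ratio, plus marker lists and miRNAs singled out later for rank, paralog pairs or sequence. Members and lists were chosen with earlier results of these data known. Loci are from GENCODE and RefSeq for GRCm38, the assembly of mm10, and all 6 members matched a RefSeq mature sequence. The tests were checked on simulated independent reads, without amplification copies or spread between replicates. That check covers the calculation only and cannot tell whether these libraries meet its assumptions. Tools were Python 3.11.15, scipy 1.17.1, pandas 2.3.3, numpy 2.4.6, matplotlib 3.10.9, R 4.3.3 and edgeR 4.0.16 (TMM factors only). The other RNA classes were not analysed here.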

Additional observations from a re-analysis of the deposited data

How the results depend on the processing

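No paired analysis was possible because only 1 library stands for either condition. Every SDCSC share and every comparison between the libraries rests on 3964 SDCSC reads, which limits all members except the miR-10 5p products. Without library scaling, which ignores that the libraries differ in depth, the log2 ratio of miR-10a-5p was -2.39, 8 miRNAs were at least 1.5-fold higher and 100 lower, 3 and 81 of them with an adjusted p under 0.05, and of the members 0 were called higher and 2 lower. Over the 9 other settings, which were the other scalings, sums of entries, added reads and, chosen after seeing the data, totals without the 9 blood-cell markers, the log2 ratio ranged from 0.53 to 0.80 for miR-10a-5p and from -2.84 to -2.56 for miR-10b-5p, with adjusted p at most 0.000865 and 2e-72 (exact tests). The number of members called higher was 0 under the median of ratios, under TMM and at a 2-fold threshold, since miR-10a-5p was then under the fold asked for. Calls were not counted with the 6 members or the 9 blood-cell markers left out of the totals. There miR-10a-5p was 1.44-fold and 1.45-fold higher, also under 1.5-fold. Summing entries gave the miR-10 family 10.5% and 4.46% of reads, because the totals grow while its own reads do not. A minimum of 10 reads per library reduced the counts to 12 higher and 10 lower, 8 of the latter with an adjusted p under 0.05, while asking for a read in one of the libraries alone raised them to 154 and 102. The miR-10b share of miR-10 reads, the strand shares and the miR-196 shares moved by less than their intervals under the settings tried for them.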
